A study of Mus musculus with 32 samples.

Results

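The cells described here are astrocytes of the mouse median eminence (ME) that held Spry2 transcripts. They were the cells with at least 5 unique molecular identifiers (UMIs, each counted as 1 captured RNA molecule) of Agt making up at least 0.1% of the cell, and at least 2 UMIs of Spry2. Cells with 5 or more UMIs of Dcn, 20 or more of Mal, Ermn and Opalin together, or 20 or more of Snap25, Syt1, Stmn2 and Stmn3 together were left out. 169 of the 5982 sequenced cells met these criteria and are called Spry2 cells. They were 12.5% of the 1352 cells that met the Agt and other criteria, called Agt cells (95% exact Clopper-Pearson interval 10.8 to 14.4%). Of the other Agt cells, 218 held 1 Spry2 UMI and 965 held 0 Spry2 UMIs, and the 965 were the comparison group. Because the cells were chosen by their Agt and Spry2 counts, their levels are a description and not a result.

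The ME was taken from C57B/L6 mice aged 40 to 47 days, of which 5 had been fasted overnight and 5 had been fasted in the same way and then refed normal chow for 1 h. All 10 mice had thus been fasted, tissue was combined within each condition, and each condition gave 2 libraries. Every cell barcode carries a suffix, 1 to 4, here called its barcode number, which no label ties to a library or a condition. Fasted and refed cells are thus given together as 1 sample and could not be compared. No test between groups was run, and intervals cover counting error only. The barcode numbers held 1359 to 1642 cells each, the median cell held 3837 UMIs, and 21 of the 5961 distinct cell barcodes were shared by 2 barcode numbers (2 of the Spry2 cells had such a barcode). The Spry2 cells held a median of 2845 UMIs against 2657 in the comparison cells, with 3.81% and 4.28% of UMIs from mitochondrial genes.

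Astrocytes clear glutamate and potassium, couple through gap junctions and supply angiotensinogen, the product of Agt, to the hypothalamus. Spry2 encodes Sprouty2, an inhibitor of receptor tyrosine kinase signaling that is itself induced by fibroblast and epidermal growth factors through the ERK kinases. Its relatives in the same feedback loop include the phosphatase Dusp6, the Spred proteins and the ETS transcription factors Etv1, Etv4 and Etv5. Of the genes named with these cells, Lrrc8a encodes the obligatory subunit of volume-regulated anion channels, Sdc4 the heparan sulfate proteoglycan syndecan-4, and Phkg1 the catalytic subunit of phosphorylase kinase, which starts glycogen breakdown.

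The cells had been labelled a growth-factor-response state, which the genes measured here did not settle. Of 8 growth-factor-response genes compared, 7 had ratios above 1, but the 95% interval of each of the 8 included 1. None differed by 2-fold, a limit that 0.921% of all genes compared passed upward and 0.307% downward. The cells are called here by the gene that chose them. What set the Spry2 cells apart from other Agt cells was a group of genes whose transcripts carry long runs of T and whose level followed the base composition of the cell barcode, the 16-base tag that marks the droplet. The runs of Spry2 and of genes described further on are shown first. Each line gives 30 bases of the sense strand of the GENCODE vM21 transcript (GRCm38), with the run of T in capitals. All lie in 3′ UTRs, 488 to 986 bases before the annotated 3′ end. For Spry2, Slc39a1, Actb and Lrrc8a the line holds the 12 bases before the run and its first 18 bases, and for the others the whole run.

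Spry2, a run of 38, chr14:105892616-105892645, minus strand: tttctcttttccTTTTTTTTTTTTTTTTTT
Notch2, a run of 22, chr3:98149775-98149804, plus strand: gggcTTTTTTTTTTTTTTTTTTTTTTattc
Slc39a1, a run of 32, chr3:90253079-90253108, plus strand: aggtttgtttgcTTTTTTTTTTTTTTTTTT
Actb, a run of 29, chr5:142903661-142903690, minus strand: ttttttttaaagTTTTTTTTTTTTTTTTTT
Lrrc8a, a run of 36, chr2:30262752-30262781, plus strand: ttgtttggttggTTTTTTTTTTTTTTTTTT
Sdc4, a run of 22, chr2:164425131-164425160, minus strand: catgTTTTTTTTTTTTTTTTTTTTTTaatg
Insig1, a run of 24, chr5:28078148-28078177, plus strand: tgcTTTTTTTTTTTTTTTTTTTTTTTTgga

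The Spry2 cells were astrocytes by their markers. All 15 core astrocyte genes were measured, none differed by 2-fold from the comparison cells, and their median log2 ratio was -0.05, beside -0.01 over the 7164 genes compared. Summed over the list they reached 24907 UMIs per 1000000 UMIs of the group (CPM) in Spry2 cells, 25169 CPM in comparison cells and 2785 CPM in all cells outside the Agt cells. The glutamate transporter Slc1a2 stood at 1597 CPM against 1491 CPM, and the connexin Gja1 at 1771 CPM against 1693 CPM. The lowest ratio in the list was that of the growth factor receptor Fgfr3, at 411 CPM against 550 CPM (0.747-fold, 95% interval 0.643 to 0.864). Markers of other cell types were measured in both groups. The criteria themselves limited Dcn, which is in the VLMC list, and Snap25, Syt1, Stmn2 and Stmn3, which are in the neuronal list. The 12 tanycyte genes summed to 130 CPM in Spry2 cells and 138 CPM in comparison cells, with Rax at 35.6 and 32.3 CPM, and their sums over the 4 barcode numbers ranged from 83.4 to 184 CPM and from 92.9 to 166 CPM. The 8 oligodendrocyte genes summed to 1798 and 1600 CPM. The 8 microglial genes summed to 170 and 257 CPM, the 10 neuronal genes to 302 and 330 CPM, the 8 OPC genes to 267 and 285 CPM, the 7 VLMC genes to 92.9 and 91.4 CPM, the 8 ependymocyte genes to 419 and 457 CPM, the 7 endothelial genes to 75.1 and 80.3 CPM, the 6 mural genes to 15.8 and 19.7 CPM, and the 5 pars tuberalis genes to 57.3 and 311 CPM. In the comparison cells this last sum ran from 43.1 to 1363 CPM over the barcode numbers, and 1 cell held 82.7% of the UMIs of Cga. Without barcode number 3, a setting chosen after seeing the data, the sums were 57.0 and 67.3 CPM. Among defining markers, the tanycyte gene Col25a1, the macrophage gene Mrc1, the endothelial gene Flt1 and the mural gene Kcnj8 were at 0 in the Spry2 cells. In the comparison cells, 2 genes of the tanycyte list, 1 of the mural list and 0 of the microglial and endothelial lists were at 0. A count of 0 has an exact upper limit of 7.29 CPM in the 506048 UMIs of the Spry2 cells. In the 2690344 UMIs of the comparison cells that limit is 1.37 CPM. 8 neuropeptide genes summed to 298 CPM and 4 haemoglobin genes to 15.8 CPM in Spry2 cells, against 233 and 19.0 CPM. Whether these came from free RNA was not tested.

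How many Agt cells were Spry2 cells followed the cell barcode. Of the Agt cells whose 16-base barcode held 5 G or C, 66.7% were Spry2 cells (22 of 33, interval 48.2 to 82.0%). The share was 49.0% at 6 G or C (70 of 143), 23.5% at 7 (61 of 260), 3.22% at 8 (11 of 342), 0.619% at 9 (2 of 323) and 1.62% at 10 (3 of 185). At 11 it was 0 of 66, which allows up to 4.55% taken as 3 counts, with an exact upper limit of 5.44%. The intervals at 6 G or C (40.5 to 57.4%) and at 8 (1.62 to 5.68%) did not overlap. Barcodes with at most 6 G or C are called AT-rich below and those with at least 10 GC-rich. In AT-rich barcodes the share was 38.8%, 50.9%, 61.8% and 62.5% in barcode numbers 1 to 4. In GC-rich barcodes it was 1.35% in number 1 and 3.08% in number 4. It was 0 of 65 cells in number 2 (up to 4.62% taken as 3 counts, exact upper limit 5.52%). In number 3 it was 0 of 47 (up to 6.38% taken as 3 counts, exact upper limit 7.55%). The same order held in each barcode number, and the shares did not overlap.

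**Figure D1:**
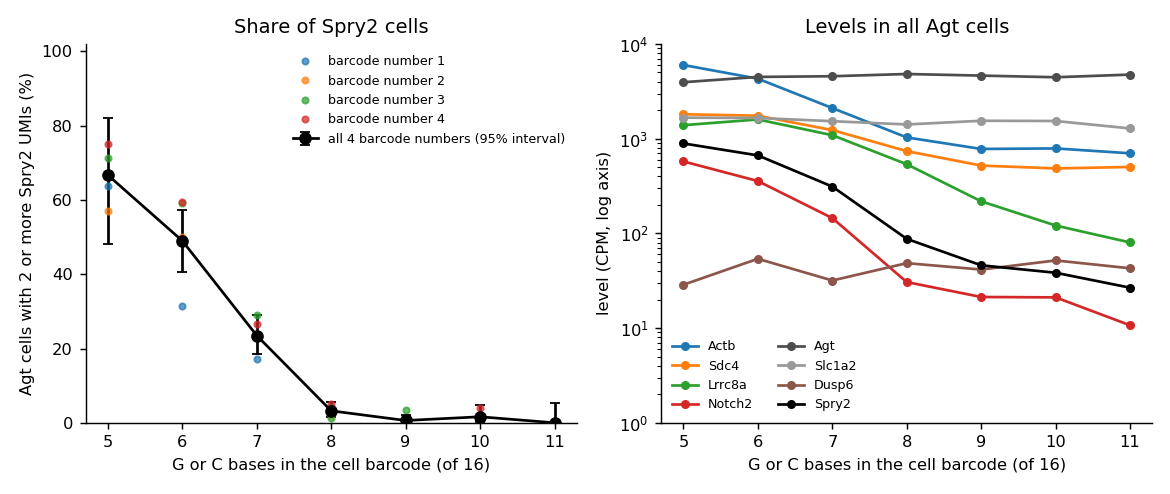
The left panel plots the percentage of Agt cells that were Spry2 cells against the number of G or C bases in the 16-base cell barcode, over all cells with 95% exact intervals and for each barcode number, and the right panel plots levels in all Agt cells on a log axis of CPM. The share drops from 66.7% at 5 G or C to 3.22% at 8, and Spry2, Notch2, Lrrc8a, Actb and Sdc4 drop with it while Agt, Slc1a2 and Dusp6 do not.

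The barcodes of the Spry2 cells held 6.47 ± 0.964 G or C (mean ± SD over 169 cells), those of the comparison cells 8.59 ± 1.26 and those of all cells outside the Agt cells 8.10 ± 1.41. AT-rich barcodes made up 54.4% of the Spry2 cells, 4.97% of the comparison cells and 13.5% of the other cells. Agt itself, counted in all Agt cells, lay between 3947 and 4819 CPM over the 7 barcode classes, and the median total of UMIs lay between 2628 and 2983. The level of Spry2 in all Agt cells, with no choice on Spry2, was 891 CPM at 5 G or C (interval 719 to 1091), 666 CPM at 6, 312 CPM at 7, 87.5 CPM at 8, 46.0 CPM at 9, 38.4 CPM at 10 and 26.7 CPM at 11 (8.68 to 62.4). Spry2 was detected in 28.6% of Agt cells at a median depth of 2688 UMIs, against 1.87% of microglia or macrophage-like cells at a median of 3112 UMIs. Whether part of it came from free RNA was not tested. Only the 437 Agt cells with at least 3000 UMIs could be thinned to 3000 UMIs. Of these, 56.9% of 72 AT-rich and 2.35% of 85 GC-rich cells kept 2 or more Spry2 UMIs.

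Spry2 moved with the barcode in other cell types too, and its level was highest in astrocyte-like cells in AT-rich barcodes. Cells were clustered again and 11 cell types were named from marker lists. In AT-rich barcodes, astrocyte-like cells held 719 CPM of Spry2, VLMC-like cells 280 CPM, OPC-like cells 239 CPM, tanycyte-like cells 128 CPM, neuron-like cells 60.1 CPM and oligodendrocyte-like cells 45.7 CPM. In GC-rich barcodes VLMC-like cells held 6.95 CPM, tanycyte-like cells 4.33, neuron-like cells 5.16 and oligodendrocyte-like cells 2.82 CPM. The interval of astrocyte-like cells in GC-rich barcodes, 26.8 to 57.4 CPM from 29 UMIs, overlapped with that of OPC-like cells, 8.65 to 39.5 CPM from 8 UMIs, with those of the VLMC-like, mural-like, ependymocyte-like and endothelial-like cells, which rested on at most 1 UMI each, and with that of the pars tuberalis-like cells at 0 UMIs. It lay above those of tanycyte-like, neuron-like, oligodendrocyte-like and microglia or macrophage-like cells. VLMC-like and OPC-like cells did not differ in AT-rich barcodes beyond their intervals, 191 to 398 CPM in the first and 189 to 297 CPM in the second. Microglia or macrophage-like cells held 10.8 CPM and 3.77 CPM, from 3 UMIs and 1 UMI.

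**Figure D2:**
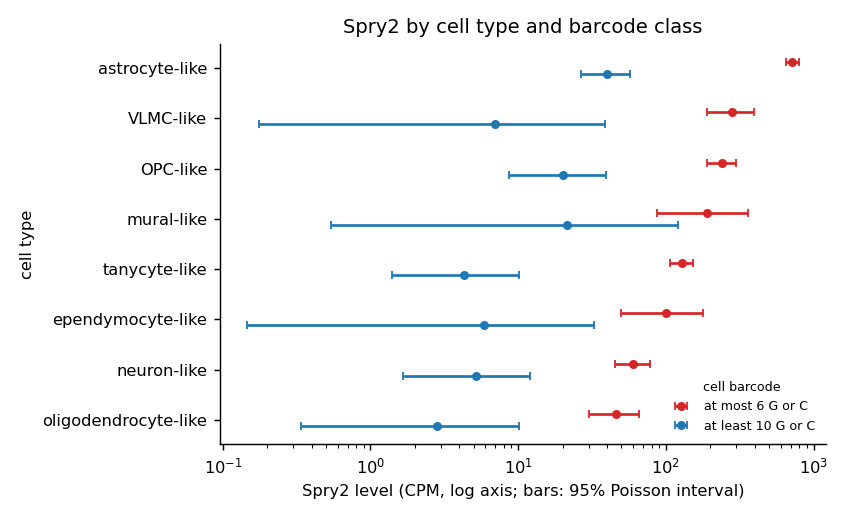
Points give the Spry2 level in CPM on a log axis for 8 marker-named cell types, in cells with AT-rich (at most 6 G or C) and GC-rich (at least 10) barcodes, with 95% exact Poisson intervals; types with 3 or fewer Spry2 UMIs in AT-rich barcodes are not drawn. Every type drawn lies higher in AT-rich barcodes, and astrocyte-like cells have the highest point in both classes, at 719 CPM in AT-rich barcodes.

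The clusters divided the Agt cells in the same way. 146 of the 169 Spry2 cells fell into 1 astrocyte-like cluster of 373 cells, whose barcodes held 6.82 G or C on average, together with 94 comparison cells. Another astrocyte-like cluster of 1040 cells, with 8.65 G or C on average, held 22 Spry2 cells and 839 comparison cells. The 21 clusters that were not astrocyte-like averaged 7.88 to 8.42 G or C. Of the 2000 variable genes on which the cells were clustered, 17 were among the genes at least 2-fold higher in Spry2 cells. Agt and Spry2 were also among the 2000, so the clusters are not separate from the choice of cells.

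66 of 7164 genes compared were at least 2-fold higher in Spry2 cells than in comparison cells, which is 0.921% of the genes compared, and 22 were at least 2-fold lower (0.307%). Genes other than Agt and Spry2, which chose the cells, were compared when they had at least 50 UMIs in both groups together, by the log2 ratio of CPM with 10 CPM added to each group. 65 of the 66 were higher in each of the 4 barcode numbers, as were 16 of the 22 lower genes in the other direction. The 25 genes with the highest ratios among the 65 ran from 1.69 to 2.97 on the log2 scale and held a T run of 21 or more in every case. They are given here by their known roles.

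Among receptors and adhesion molecules, Notch2, a receptor of the Notch pathway, led the list. It stood at 380, 463, 409 and 269 CPM in the Spry2 cells of barcode numbers 1 to 4 and at 54.1, 33.0, 37.5 and 32.3 CPM in the comparison cells. The groups did not overlap, and over all cells Notch2 was 9.54-fold higher (interval 7.49 to 12.2). Jag1, which encodes a Notch ligand, was also past 2-fold, at 103 CPM against 34.9 CPM, whereas Notch1 stood at 59.3 and 61.3 CPM and Notch3 at 35.6 and 25.6 CPM. Hes5, a target gene of Notch signaling, stood at 1257 CPM against 1021 CPM (1.23-fold, 1.13 to 1.34), and Hes1 at 330 CPM against 264 CPM. Notch2 and Jag1 hold runs of 22 and 23 T, and Notch1, Notch3, Hes1 and Hes5 hold none above 15.

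Among cytoskeletal genes, Actb, which encodes beta-actin, stood at 4217, 6034, 4648 and 3897 CPM in Spry2 cells and at 1044, 899, 1124 and 964 CPM in comparison cells. It was 4.75-fold higher (4.49 to 5.02), without overlap between the groups. Actg1, which encodes the near-identical gamma-actin and was chosen for this contrast after its value was seen, stood at 447 CPM against 493 CPM, and its longest run of T is 7 bases. Clasp2, a microtubule-binding protein gene, was 4.49-fold higher (3.57 to 5.62).

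Lrrc8a stood at 1548, 1658, 1535 and 1067 CPM in the Spry2 cells of barcode numbers 1 to 4 and at 514, 411, 433 and 367 CPM in the comparison cells, 3.32-fold higher (3.03 to 3.65). The counts in this list and those that follow are set beside the 0.921% of all genes that were higher and 0.307% that were lower by 2-fold. Lrrc8a was 1 of 8 genes compared from the list of LRRC8 and volume regulation and the only one to pass 2-fold, with the water channel gene Aqp4 at 433 CPM against 457 CPM. Sdc4 stood at 1696, 1907, 1586 and 1314 CPM against 773, 654, 692 and 644 CPM, 2.34-fold higher (2.16 to 2.54). It was likewise the only one of 10 genes of the syndecan, glypican and heparan sulfate list to pass, and Sdc3 stood at 63.2 CPM against 83.6 CPM. Phkg1, at 463, 413, 409 and 566 CPM against 298, 273, 326 and 358 CPM, did not overlap between the groups but with an interval of 1.29- to 1.74-fold did not pass 2-fold, and 0 of 13 glycogen genes did. Its longest T run is 11 bases.

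Among transcription factors, Nfia, which drives astrocyte development, stood at 743 CPM against 208 CPM (3.57-fold, 3.12 to 4.08), and its relatives Nfib and Nfix at 211 against 194 CPM and 79.0 against 87.7 CPM. Bhlhe41, a repressor in the circadian clock, stood at 318 CPM against 81.0 CPM. It was the 1 of 15 clock genes to pass 2-fold, and Per3 was next at 403 CPM against 244 CPM. Nfia, Bhlhe41 and Per3 hold runs of 29, 39 and 24 T, and Nfib and Nfix runs of 18 and 13. Insig1, which retains the sterol sensor in the endoplasmic reticulum, was the 1 of 19 cholesterol and lipid genes to pass, at 470 CPM against 133 CPM.

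Of transport and metabolism, the zinc transporter gene Slc39a1 stood at 250, 406, 284 and 327 CPM in Spry2 cells and at 42.5, 36.8, 41.5 and 37.1 CPM in comparison cells (8.18-fold, 6.36 to 10.5). The glycine cleavage enzyme gene Amt was 5.24-fold higher (3.68 to 7.45), the mitochondrial carrier gene Sfxn5 3.44-fold (3.03 to 3.90) and Ttyh2, of a family of anion channels, 3.75-fold (3.15 to 4.45). Among genes of RNA methylation and chromatin, Wtap, a subunit of the m6A methyltransferase, was 4.30-fold higher, the demethylase gene Alkbh5 3.87-fold and the histone demethylase gene Kdm6b 4.36-fold. Cdkn1b, which encodes the cell cycle inhibitor p27, was 3.94-fold higher (2.93 to 5.28). The other named genes, Bmp2k, Lrp4, Zscan26, D17H6S53E, Kdelr2, Hsf2, Mcmbp, Dctn4, Marf1 and Pam, had log2 ratios of 1.69 to 2.17.

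These genes also moved with the barcode where Spry2 had played no part in choosing cells. In the 624 AT-rich and 776 GC-rich cells outside the Agt cells, 134 of 11130 genes were at least 2-fold higher in AT-rich barcodes (1.20%) and 3 were at least 2-fold lower (0.0270%). Of the 66 genes higher in Spry2 cells, 65 had enough UMIs there and 59 of them (90.8%) were at least 2-fold higher in AT-rich barcodes, with a median log2 ratio of 1.90 beside -0.03 over all genes. In the other direction, the 59 made up 59.6% of the 99 barcode-linked genes that had been compared between Spry2 and comparison cells. All 25 leading genes were past 2-fold there, from 1.44 to 3.51 on the log2 scale. Notch2 stood at 266 CPM in AT-rich and 17.2 CPM in GC-rich barcodes of these other cells, Slc39a1 at 266 and 14.2 CPM, Lrrc8a at 217 and 16.2 CPM, Actb at 9889 and 1745 CPM and Sdc4 at 236 and 69.0 CPM. Actg1, at 696 and 756 CPM, and Phkg1, at 23.5 and 18.7 CPM, did not pass. Within each of the 11 named cell types, every 1 of the leading genes with at least 20 UMIs was higher in AT-rich barcodes. These were 24 genes in tanycyte-like, 25 in oligodendrocyte-like, 17 in microglia or macrophage-like and 22 in neuron-like cells. Their medians were 2.48, 2.04, 2.65 and 2.20 on the log2 scale. Only 2 of the 25 had enough UMIs in endothelial-like cells, 2 in mural-like cells and 8 in pars tuberalis-like cells. Of the 11 types, the astrocyte-like one holds 168 of the 169 Spry2 cells, so it is not separate from the choice of cells. In the Agt cells themselves, 72 of 3816 genes were at least 2-fold higher in the 176 AT-rich than in the 251 GC-rich cells (1.89%) and 3 were lower (0.0786%). 48 of the 50 genes higher in Spry2 cells and measured there were past 2-fold, but these cells include the Spry2 cells.

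**Figure D3:**
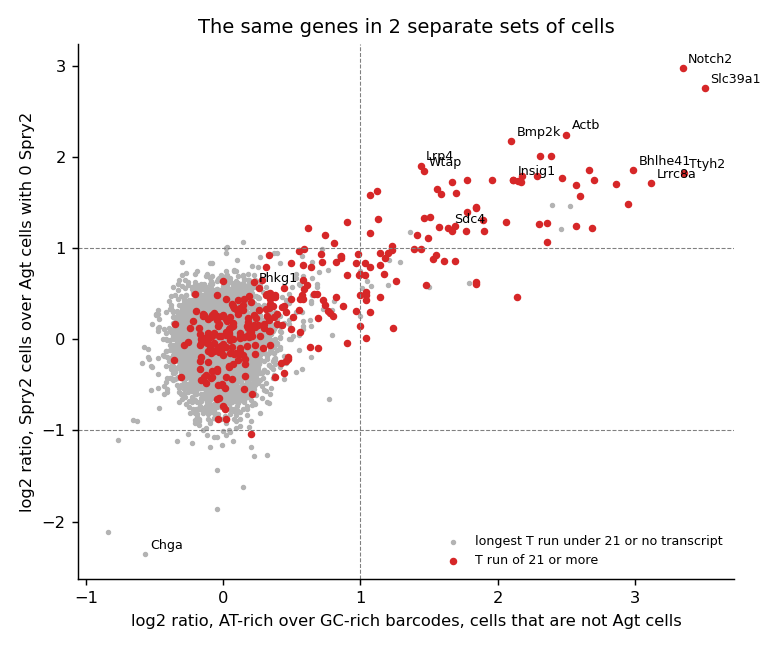
Each point is 1 of 7164 genes, with the log2 ratio of AT-rich over GC-rich barcodes in cells outside the Agt cells on the horizontal axis and the log2 ratio of Spry2 cells over Agt cells with 0 Spry2 on the vertical axis; red points have a T run of 21 or more, and dashed lines mark 2-fold. The genes higher in Spry2 cells, led by Notch2 and Slc39a1, lie at the upper right, where 59 of the 65 measured in both are past 2-fold on both axes, and nearly all are red.

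The genes that were higher shared a sequence feature with Spry2. Spry2 itself holds a run of 38 T and moved with the barcode, so the feature is not separate from the choice of cells. 59 of the 66 genes (89.4%) had an annotated transcript with a run of 21 or more T, against 317 of the 7149 compared genes that have a transcript in the annotation (4.43%). Read the other way, 18.6% of genes with such a run were higher. Of 3442 genes whose longest run was at most 7 bases, 2 were higher, and of 352 genes with a longest run of 17 to 20 bases, 1 was. In the cells outside the Agt cells, 104 of 418 genes with a run of 21 or more were at least 2-fold higher in AT-rich barcodes (24.9%), against 10 of 5536 genes with runs of at most 7 bases (0.181%). Runs of A showed no such difference, with 5 of 249 genes higher at 21 or more A (2.01%) and 28 of 3946 at 7 or fewer (0.710%). 56 of the 59 runs lay in a 3′ UTR and 3 in transcripts with no coding sequence, at a median of 745 bases before the 3′ end. The limit of 21 was chosen after the data were seen, and the higher genes had longer transcripts, with a median of 4612 against 3222 bases. Among transcripts of at least 3000 and under 6000 bases, 25 of 147 genes with such a run were higher and 4 of 2753 without. Not all genes with a long run were higher, as Cdkn1a, with a run of 26, stood at 121 CPM against 106 CPM. How a run of T and the bases of the barcode could act together on a count was not tested.

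**Figure D4:**
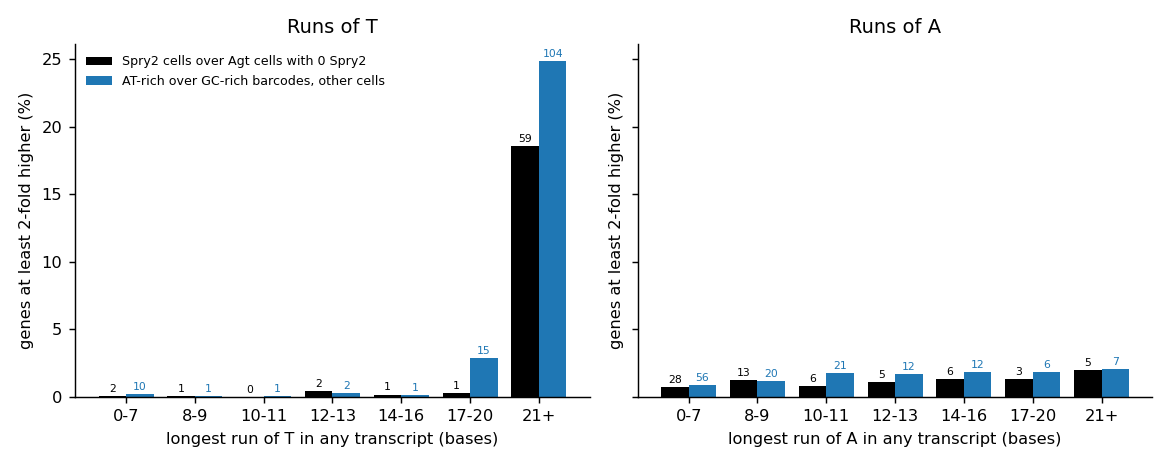
Bars give the percentage of genes at least 2-fold higher in each class of longest T run (left) or A run (right), black for Spry2 cells over Agt cells with 0 Spry2 and blue for AT-rich over GC-rich barcodes in cells outside the Agt cells, with the number of genes above each bar. The bars stay under 3% except for T runs of 21 or more, at 18.6% and 24.9%.

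7 of the 66 genes had no such run. Rbm15, Rpgrip1, Slc24a5 and Arglu1 were also higher in AT-rich barcodes of other cells, with log2 ratios of 2.40, 2.53, 2.46 and 1.36. Grtp1, Rspo3 and Zkscan1 were not, at 0.14, 0.03 and 0.02. Rspo3, which encodes a secreted enhancer of Wnt signaling and is named here after its value was seen, stood at 61.3 CPM in Spry2 cells and 25.3 CPM in comparison cells, from 31 and 68 UMIs.

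To compare Spry2 cells with comparison cells of like barcodes, CPM was computed within each class of 5 to 8 G or C. These classes hold 164 of the Spry2 cells and 452 of the comparison cells. They were uneven, with 22 Spry2 cells and 8 comparison cells at 5 G or C, and 11 and 270 at 8. CPM was averaged with the same weights in both groups, the UMIs of the Spry2 cells in each class. The median log2 ratio of the 66 genes was 1.46 over all barcodes and 0.61 with the barcode class held constant, and 11 of the 66 remained at least 2-fold higher. The count over all genes was not lower, with 84 genes higher (1.17%) and 82 lower (1.14%), but the median gene among the 84 had 87.0 UMIs over both groups and only 11 of the 84 were among the 66. Lrrc8a went from 1.71 to 0.24, Sdc4 from 1.22 to 0.18, Ttyh2 from 1.82 to 0.22, Sfxn5 from 1.74 to 0.28 and Bhlhe41 from 1.85 to 0.47. Notch2 went from 2.97 to 0.94, Slc39a1 from 2.75 to 1.07, Actb from 2.24 to 0.99, Nfia from 1.79 to 0.84 and Insig1 from 1.74 to 0.74. Phkg1 went from 0.57 to 0.37. All 25 leading genes stayed above 0, between 0.22 and 1.40. They had been chosen for high ratios in mostly the same cells, so this is a description and not a separate result.

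Single barcode classes differed from each other. At 6 G or C, in 70 Spry2 cells and 40 comparison cells, Lrrc8a stood at 1648 CPM and 1547 CPM (1.07-fold, 0.884 to 1.29) and Sdc4 at 1833 CPM and 1592 CPM (1.15-fold, 0.961 to 1.38), both intervals including 1. In the same cells Notch2 stood at 427 CPM and 262 CPM (1.63-fold, 1.06 to 2.57) and Actb at 5669 CPM and 2678 CPM (2.12-fold, 1.86 to 2.41). At 7 G or C, in 61 and 134 cells, Lrrc8a was 1.62-fold (1.37 to 1.91), Sdc4 1.59-fold (1.36 to 1.85), Notch2 4.33-fold (2.67 to 7.18) and Actb 2.75-fold (2.45 to 3.09) higher. A class fixes the number of G or C in the barcode and not their positions, which were not examined.

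**Figure D5:**
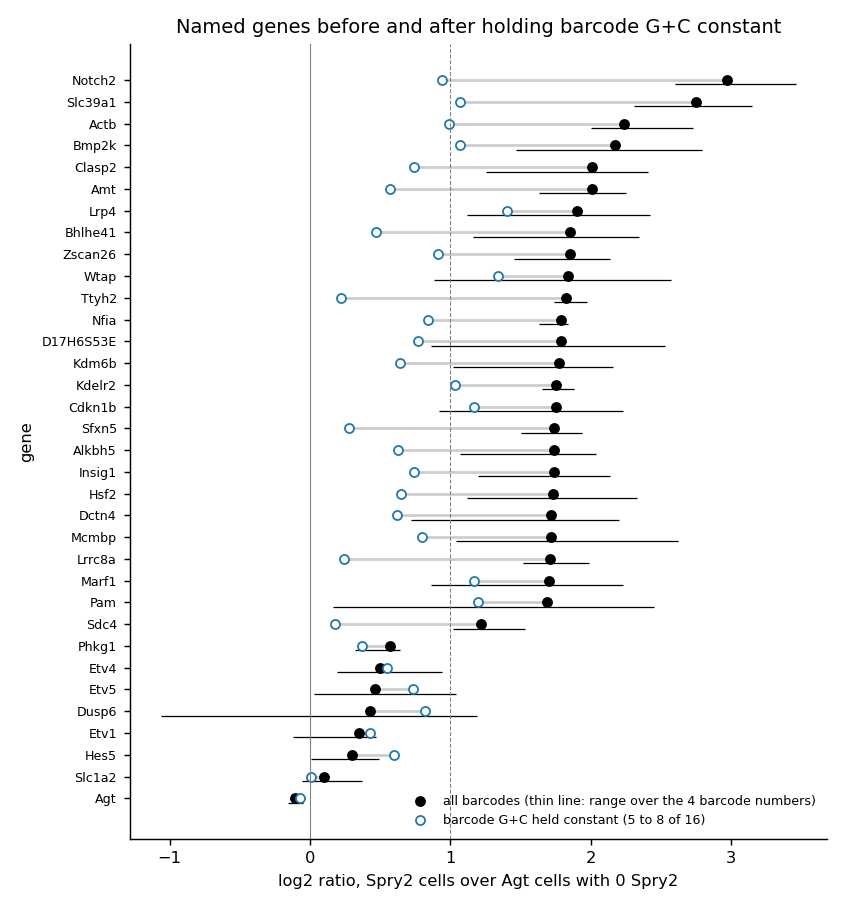
Each line is 1 named gene, with the log2 ratio of Spry2 cells over Agt cells with 0 Spry2 over all barcodes (black, with the range over the 4 barcode numbers as a thin line) and with the barcode class held constant at 5 to 8 G or C (blue open circles); the dashed line marks 2-fold. The leading genes move toward 0, Lrrc8a from 1.71 to 0.24, whereas Etv4, Etv5, Dusp6 and Hes5 do not.

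Of 20 genes of ERK feedback and fibroblast growth factor response, 8 had enough UMIs. None passed 2-fold, beside 0.921% of all genes higher and 0.307% lower. Over all barcodes the 95% interval of each of the 8 ratios included 1. 7 of the 8 had a log2 ratio above 0, over all barcodes and also with the barcode class held constant, with a median log2 ratio of 0.30 over all barcodes and 0.38 with the barcode class held constant, beside -0.01 and 0.02 over all genes. The ETS factor gene Etv4 stood at 35.6 against 22.3 CPM (1.59-fold, 0.886 to 2.74). Etv5, of the same family, stood at 67.2 against 46.1 CPM (1.46-fold, 0.967 to 2.15). Both were above the comparison cells in each barcode number. Dusp6 stood at 27.8, 14.2, 117 and 79.8 CPM in Spry2 cells and at 29.6, 40.6, 45.4 and 53.3 CPM in comparison cells, so that the groups overlapped and 2 of the 4 barcode numbers went each way. Unlike Spry2, these 3 genes did not move with the barcode, with log2 ratios between -0.20 and 0.05 in AT-rich against GC-rich barcodes of other cells. With the barcode class held constant their log2 ratios were 0.55, 0.73 and 0.82, but single classes differed. Etv4 was 0.262-fold at 6 G or C (0.0237 to 1.83, from 2 and 4 UMIs) and 5.40-fold at 7 (1.77 to 19.6, from 12 and 5 UMIs). Etv5 was 1.84-fold (0.577 to 7.66) at 6 and 0.900-fold (0.343 to 2.13) at 7. Dusp6 was 2.10-fold (0.677 to 8.63) and 1.43-fold (0.471 to 4.05). In the cells with 5 to 7 G or C, Dusp6 rested on 26 and 15 UMIs (1.98-fold, 1.01 to 4.03). Etv5 rested on 26 and 24 UMIs (1.24-fold, 0.684 to 2.25) and Etv4 on 16 and 9 UMIs (2.03-fold, 0.846 to 5.22). Il17rd, a receptor-like inhibitor of this signaling, rested on 10 and 4 UMIs (2.86-fold, 0.825 to 12.5). Etv1 was 1.29-fold (0.620 to 2.70) and Spred2 1.14-fold (0.402 to 3.25). Spred1, at 0.832-fold (0.471 to 1.45), and Phlda3, at 0.858-fold (0.439 to 1.65), went the other way. Only the interval of Dusp6 did not include 1. Spry1, Dusp4, Dusp5 and Fosl1 were at 0 in the Spry2 cells, and 3 genes of the same list were at 0 in the comparison cells. A count of 0 allows up to 7.29 CPM in the Spry2 cells and 1.37 CPM in the comparison cells.

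Other response programs had no member past 2-fold, beside 0.921% of all genes higher and 0.307% lower, so that a count of 0 in a short list is close to the share over all genes. These were 0 of 14 genes of the RAS and ERK core, 0 of 14 immediate early genes, 0 of 14 genes of the glucocorticoid and fasting response, 0 of 15 heat shock genes, 0 of 5 fibroblast growth factor genes, 0 of 3 epidermal growth factor genes, 0 of 9 insulin and IGF genes, 0 of 10 BMP and TGF-beta genes, 0 of 20 glycolysis genes, 0 of 18 genes of glutamate, GABA and potassium handling and 0 of 9 hormone receptor genes. Their median log2 ratios lay between -0.12 and 0.08, except for the fibroblast growth factor genes at -0.41. Fos stood at 29.6 against 34.6 CPM, the insulin receptor gene Insr at 35.6 against 26.8 CPM and the growth hormone receptor gene Ghr at 63.2 against 47.9 CPM. Nfia was the 1 of 14 patterning factor genes to pass, beside Sox9 at 429 against 310 CPM. Of the angiotensinogen system beyond Agt only Atp6ap2 had enough UMIs, at 289 against 246 CPM. Ren1, Ace and Agtr1a were among 9 genes of this list at 0 in the Spry2 cells, and 6 were at 0 in the comparison cells. Here too a count of 0 allows up to 7.29 CPM in the first and 1.37 CPM in the second.

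Several lower genes rested on few UMIs or on 1 cell. Chga, a granule protein gene of endocrine cells, had 11 UMIs in the Spry2 cells and 410 in the comparison cells, of which 73.9% came from 1 comparison cell. H2-Aa, a gene of antigen presentation, had 0 and 71 UMIs, of which 77.5% came from 1 cell. Mia and Tppp3 had 11 against 166 and 17 against 235 UMIs, spread over 105 and 134 comparison cells, and were lower in each barcode number, at 21.7 against 61.7 CPM and 33.6 against 87.3 CPM. Mia led a tanycyte-like cluster of 366 cells, which held 16 comparison cells and 1 Spry2 cell. Another tanycyte-like cluster, of 733 cells, held 3 comparison cells and 0 Spry2 cells. How far these cells gave the UMIs of Mia and Tppp3 was not tested. The other 11 named lower genes had 5 or fewer UMIs in the Spry2 cells. Of 7 reactive astrocyte genes compared, 1 passed 2-fold. This was Gfap, at 148, 149, 58.4 and 43.5 CPM in the Spry2 cells of barcode numbers 1 to 4 and 138, 190, 300 and 310 CPM in the comparison cells. The direction of Gfap differed between barcode numbers, and the groups overlapped.

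Notch2, Lrrc8a, Sdc4 and Actb were higher with each step in the number of Spry2 UMIs, and the barcodes held fewer G or C at each step. In Agt cells with 0, 1, 2 to 3 and 4 or more Spry2 UMIs, Notch2 stood at 39.8, 125, 330 and 489 CPM, Lrrc8a at 435, 808, 1371 and 1608 CPM, Sdc4 at 693, 1062, 1529 and 1837 CPM and Actb at 998, 1782, 4267 and 5777 CPM. The mean number of G or C in the barcode was 8.59, 7.72, 6.66 and 5.96 in these cells. Dusp6 stood at 41.3, 42.1, 54.5 and 69.9 CPM, Etv4 at 22.3, 19.4, 51.6 and 0 CPM and Slc1a2 at 1491, 1525, 1572 and 1652 CPM. In the 437 Agt cells with at least 3000 UMIs, thinned to 3000, Lrrc8a stood at 460, 630, 1214 and 1347 CPM and Dusp6 at 43.0, 57.3, 59.8 and 111 CPM. On either side of the limit of 2 UMIs, the 218 cells with 1 and the 89 cells with exactly 2 Spry2 UMIs held 125 and 336 CPM of Notch2 and 7.72 and 6.79 G or C. The 89 were 52.7% of the Spry2 cells, and the highest count in 1 cell was 12. At the limit on Agt, 18 Spry2 cells had 5 or 6 Agt UMIs, and 11 more cells with 3 or 4 would have met the other criteria.

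Promoters of the 25 leading genes (RefSeq, GRCm38, 300 bases around the start of each gene) were searched on both strands for 9 motifs. The E-box CACGTG was in 4 of 25, beside 7.15% of 32851 promoters, the CRE TGACGTCA in 2, beside 1.79%, the ETS letters CCGGAAGT in 1, beside 3.89%, and the EGR letters GCGTGGGCG in 1, beside 0.612%. The AP-1 letters TGANTCA (7.81% of all promoters) and the GRE, HSE, NFI and SRF motifs, each in under 1% of all promoters, were in none.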

How the data were processed

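Single cells of the ME were profiled with the 10X Single Cell 3′ V2 kit. The authors mapped reads to GRCm38 (mm10) and counted UMIs with Cell Ranger 2.0. The deposited file holds raw counts for 27998 genes and 5982 cells in 1 matrix of 29288898 UMIs. The gene annotation and the rule for calling cells are not given in the sources used here. 27645 gene identifiers were matched to GENCODE vM21 symbols. The cells, gene lists and comparisons were chosen with earlier results of these data known, and the analyses by barcode and T run were chosen after seeing the data. The matrix was taken as 1 sample, since barcode numbers could not be tied to libraries, and the planned comparison of refed with fasted cells was not run.

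UMIs were summed per group and given as CPM with exact Poisson intervals, ratios of CPM with exact conditional intervals and shares with exact Clopper-Pearson intervals, all at 95% and for counting error only. Genes with at least 50 UMIs were compared as log2 ratios with a pseudocount of 10 CPM. A count of 0 allows up to 3 counts. Named genes are the 5 that name the cells, the 25 highest and 15 lowest past 2-fold with 1 sign in all 4 barcode numbers, and up to 6 per list of 34 lists; Jag1, Gja1, Hes1, Nfix and list genes outside the 6 were added to show families or markers. Clusters were computed with scanpy 1.11.5 (2000 variable genes, 30 components, 15 neighbours, Leiden resolution 1 with igraph 0.11.9) and named by the best marker list when its score was at least 0.3 and 1.5 times the next and at least 3 markers lay 4-fold above the median cluster; 2 of 24 clusters stayed unnamed. Scrublet, run per barcode number, called 50 cells (0.836%), 0 of them Spry2 cells, which were kept except in 1 alternative. T runs were read from every annotated transcript of a gene. Scripts were tested on simulated data. Python 3.11 with numpy, scipy and pandas was used. No cell was removed for depth.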

Additional observations from a re-analysis of the deposited data

Results flagged for a closer look

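For 43 quantities (the share of Spry2 cells and the log2 ratios of 42 named genes), the value of 1 of the 4 barcode numbers was compared with the other 3, and 2 had 1 number set apart from the rest beyond the 95% critical value, which chance alone gives for about 1 in 20. Actb had a log2 ratio of 2.73 in barcode number 2, against 2.00 to 2.04 in the other numbers. H2-Aa had -3.10 in barcode number 1, where 1 comparison cell held most of its UMIs. This gene had 0 UMIs in the Spry2 cells, so its ratio depends on the pseudocount.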

How the results depend on the processing

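No paired analysis was possible because the barcode numbers carry no label that ties them to the numbered replicates of the 2 conditions. The share of Spry2 cells among Agt cells (12.5%) was 28.6% with at least 1 Spry2 UMI, 5.92% with at least 3 and 16.7% in cells of 3000 or more UMIs (14.4% once these were thinned to 3000), and 11.8 to 13.6% with each barcode number left out. With alternatives added after seeing the data it was 52.3% in AT-rich and 1.20% in GC-rich barcodes. The 66 higher genes became 34 with at least 1 Spry2 UMI, 40 in cells thinned to 3000 UMIs, 105 and 32 with a pseudocount of 1 and 50 CPM, 25 with at least 200 UMIs, 19 in barcodes with 5 to 7 G or C, and 54 to 69 with a barcode number left out. The 22 lower genes became 8 and 122 with at least 1 and at least 3 Spry2 UMIs, 129 and 2 with a pseudocount of 1 and 50 CPM, 46 and 5 with at least 20 and 200 UMIs, 82 with the barcode class held constant, 11 in barcodes with 5 to 7 G or C, and 24 to 45 with a barcode number left out (43 without number 2, 45 without number 4). The 11 list members past 2-fold became 18 with a pseudocount of 1 CPM, 6 in barcodes with 5 to 7 G or C, and 8 to 15 with a barcode number left out. Over 17 planned settings, all 714 values of the 42 named genes kept their sign and 72 moved by more than 1 SD of the 4 barcode numbers. The kept signs are a description only. The 25 highest and 15 lowest genes had been chosen for 1 sign in all 4 barcode numbers, and the settings reuse the same cells. A change of the UMI filter does not alter a log2 ratio. Over the 17 settings, the 25 leading genes ranged from 0.88 to 3.22, Lrrc8a from 1.31 to 1.90 and Chga from -2.92 to -0.58 on the log2 scale.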
